A study of Mus musculus with 29 samples.

Results

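Alveolar septa are the thin walls between the airspaces of the lung, and the comparison described here is between septa of newborn mouse pups and septa of pups near the end of alveolar growth. Libraries were placed by the age in their labels and by no measured value. The newborn group holds 8 libraries, from 4 ages in days after birth, with 2 pups at P0.5, 2 at P1, 2 at P1.5 and 2 at P2.5, and the late group holds 9, from 2 pups each at P13.5, P15, P19 and P23 and 1 pup at P28. These are 17 of the 29 libraries of the series. The other 12 libraries, 4 prenatal and 8 from P4 to P10, did not enter the main comparison and give the levels before and between the groups. They entered only an alternative fit of all 29 libraries in 4 stage groups. All animals were C57BL/6 mice, each library came from 1 animal, and no treatment is named in the labels. The septa were cut from sections by laser capture. Litters were not used here. The p-values measure the spread between these animals within each group, which holds their differences in age as well. Pups of the newborn group weighed 1.3 to 2 g and those of the late group 6.8 to 12.5 g.

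Mouse pups are born with saccular lungs, in which thick primary septa divide wide airspaces. In the days that follow, contractile fibroblasts that deposit elastin lead the outgrowth of secondary septa, which subdivide the saccules into alveoli. Later the septa thin, interstitial cells decrease, and the capillary network matures into a single layer. Both kinds of wall are built from flat type 1 and surfactant-making type 2 epithelial cells, capillary endothelium, fibroblasts and immune cells. In bulk RNA from such septa, fewer cells of a type and less RNA per cell cannot be told apart.

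Levels are given in FPKM, a fragment count scaled both for transcript length and for the mapped total of the library. The total FPKM per library ranged over 318176 to 457706, and 10114 to 13059 genes reached an FPKM of 1. Among the 8623 protein-coding genes whose median reached 5 FPKM, between 1 and 578 were listed at 0 in a library. P19 pup d, with 578, and P19 pup f, with 242, stood apart, and their median correlations with the rest of their group, 0.788 and 0.824, were the lowest of the 17. A value of 0 can therefore be a failed estimate, and the comparison was repeated without these pups. Levels of Xist and of genes on the Y chromosome went against the sex label in 6 of the 17 libraries. By the labels the newborn group had 4 females and 4 males and the late group 7 females and 2 males, while Xist exceeded the Y genes in 4 of 8 newborn and 5 of 9 late libraries.

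Many genes differed between newborn and late septa. Of 13872 genes tested, 662 were higher in late septa (4.77%) and 1041 were lower (7.5%), 12.3% in all. Counts in the gene lists below are to be read beside these shares. A gene was called higher or lower at a Benjamini-Hochberg adjusted p under 0.05 in limma on log2(FPKM + 1). Changes below are late minus newborn on that scale, which understates the change of genes near 0. Without P19 pups d and f, 668 of 13798 genes were higher (4.84%) and 987 lower (7.15%), and 544 and 826 of the calls made with all libraries were made again. Every late library lay above every newborn library in 133 genes (0.959% of those tested) and below every newborn library in 196 (1.41%). The median change over all genes tested was -0.16, and the balance of calls moved with the scaling. Of all calls, 38.9% were increases on the FPKM as deposited, 49.3% after median ratio scaling (median change -0.099) and 54.5% after quantile normalization (median change -0.029).

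**Figure D1:**
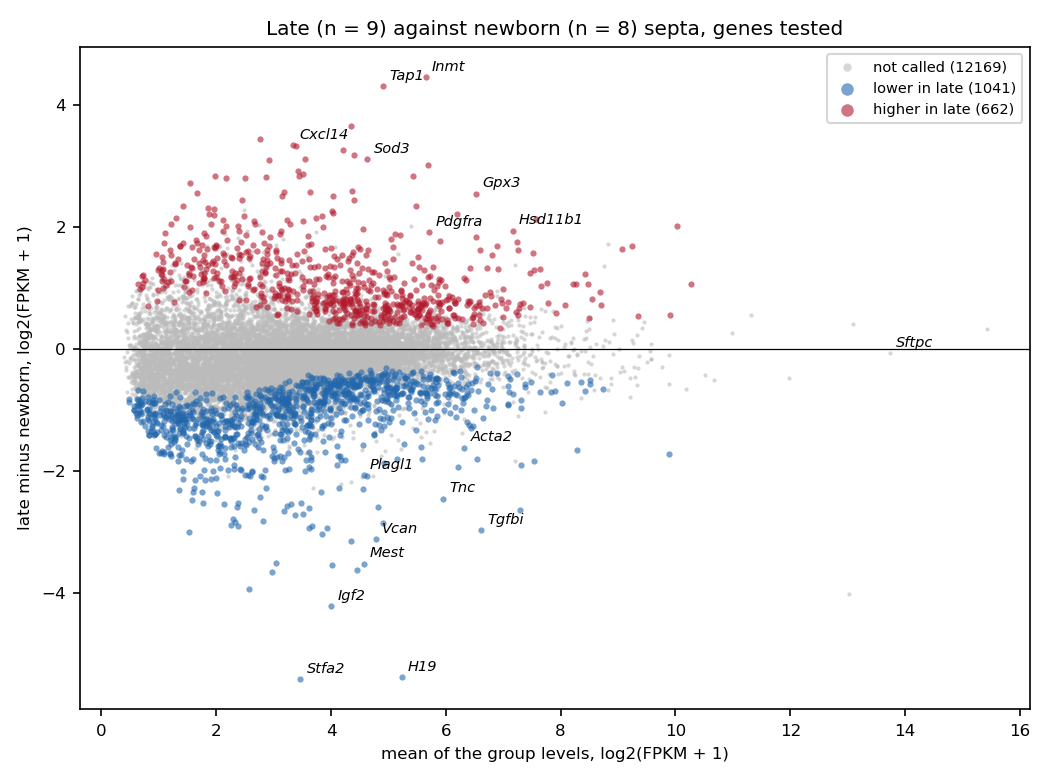
Mean level of each tested gene over the newborn and late groups, in log2(FPKM + 1), against the change from newborn to late on the same scale. Each point is a gene, with the 662 genes higher in late septa in red, the 1041 lower genes in blue and genes not called in grey. H19 and Stfa2 lie lowest and Inmt and Tap1 highest.

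Many genes of fetal growth were lower. Of 19 tested genes in a list of fetal growth and imprinted genes, 13 were lower in late septa (against 7.5% of all genes tested) and none was higher (4.77%), with a median change of -1.49, and the counts were the same without P19 pups d and f. Imprinted genes are expressed from the copy of a single parent, and many of them promote or restrain fetal growth. H19, an imprinted noncoding RNA (chromosome 7, 142575530 to 142578146 in GRCm38.p6), had lowest, median and highest levels of 153, 192 and 289.5 FPKM in newborn septa and 0.154, 3.99 and 15.5 in late septa. The groups lay far apart, and within the late group the levels were highest in both P13.5 pups and P15 pup e and lowest in the P23 pups. The change in H19 was -5.38 (standard error 0.45, adjusted p = 2.01e-07). Igf2, which encodes the fetal growth factor IGF2 and lies beside H19 (chromosome 7, 142650768 to 142666816), had 50.2, 59.4 and 108 FPKM in newborn septa against 0.0397, 3.12 and 5.08 in late septa. No late library came near the newborn range, and the change was -4.21 (standard error 0.31, adjusted p = 4.6e-08). The mean level of H19 was 1259 FPKM before birth and 137 at P4 to P10, and that of Igf2 was 304 and 20.2.

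A second imprinted region, on chromosome 12, moved with them. Dlk1, which encodes a membrane protein that holds back fat cell differentiation, ranged from 2.94 to 10.2 FPKM in newborn septa and was listed at 0 in all 9 late libraries, so no fold is given. Its neighbor Meg3, a noncoding RNA, went from 36.3, 64.1 and 161 FPKM to 3.84, 8.35 and 16.6, a change of -2.85 (adjusted p = 1.4e-06). Mest, an imprinted gene for a hydrolase-like protein, changed by -3.52 (adjusted p = 1.06e-05), from 36.5 to 104 FPKM in newborn septa to 0 to 16.9 in late septa. Plagl1, an imprinted zinc finger transcription factor, varied little within each group. Its levels were 43.7, 46.3 and 52.1 FPKM in newborn septa and 6.46, 11.3 and 14.7 in late septa, a change of -2.08 (standard error 0.14, adjusted p = 3.66e-08). The imprinted genes Grb10, an adaptor that restrains insulin and IGF receptors (-1.61, adjusted p = 2.32e-05), and Peg3, a zinc finger protein (-1.93, adjusted p = 2.74e-05), and the X-linked gene Gpc3, a cell surface proteoglycan whose loss causes overgrowth (-0.999, adjusted p = 0.000585), fell with no overlap between the groups.

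Receptors and RNA-binding proteins of the same growth system were lower as well. Igf1r, the receptor for IGF1 and IGF2, had 41.9, 46.4 and 51.5 FPKM in newborn septa and 17.7, 22.7 and 28.8 in late septa. The gap between the groups was wide against their spread, and the change was -0.997 (standard error 0.11, adjusted p = 5.41e-06). Igf2r, which clears IGF2, changed by -1.17 (adjusted p = 1.6e-05). The RNA-binding proteins that act on Igf2 and other fetal mRNAs moved the same way, Igf2bp1 by -1.38 (adjusted p = 0.000609), Igf2bp3 by -1.71 (adjusted p = 0.00104) and Igf2bp2 by -1.49 (adjusted p = 0.00594). Hmga2, a fetal chromatin protein, changed by -1.39 (adjusted p = 0.000214) from a newborn median of only 1.92 FPKM, and 5 of 9 late libraries listed it at 0. In a wider list of 25 FGF and IGF pathway genes, 9 were lower and 5 higher (7 and 6 without P19 pups d and f), with a median of -0.34. The falls included Fgfr2, the receptor for mesenchymal FGF signals to the epithelium (-0.63, adjusted p = 0.0028), Irs1, which relays IGF receptor signals (-0.82, adjusted p = 0.0109), and Igf1 (-1.24, adjusted p = 0.0224). The increases included genes for IGF-binding proteins, with Igfbp2 at 1.47 (adjusted p = 0.00067), Igfbp6 at 0.87 (adjusted p = 0.00194) and Igfbp3 at 1.59 (adjusted p = 0.00203), and the growth factor gene Fgf2 at 1.49 (adjusted p = 0.00931).

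**Figure D2:**
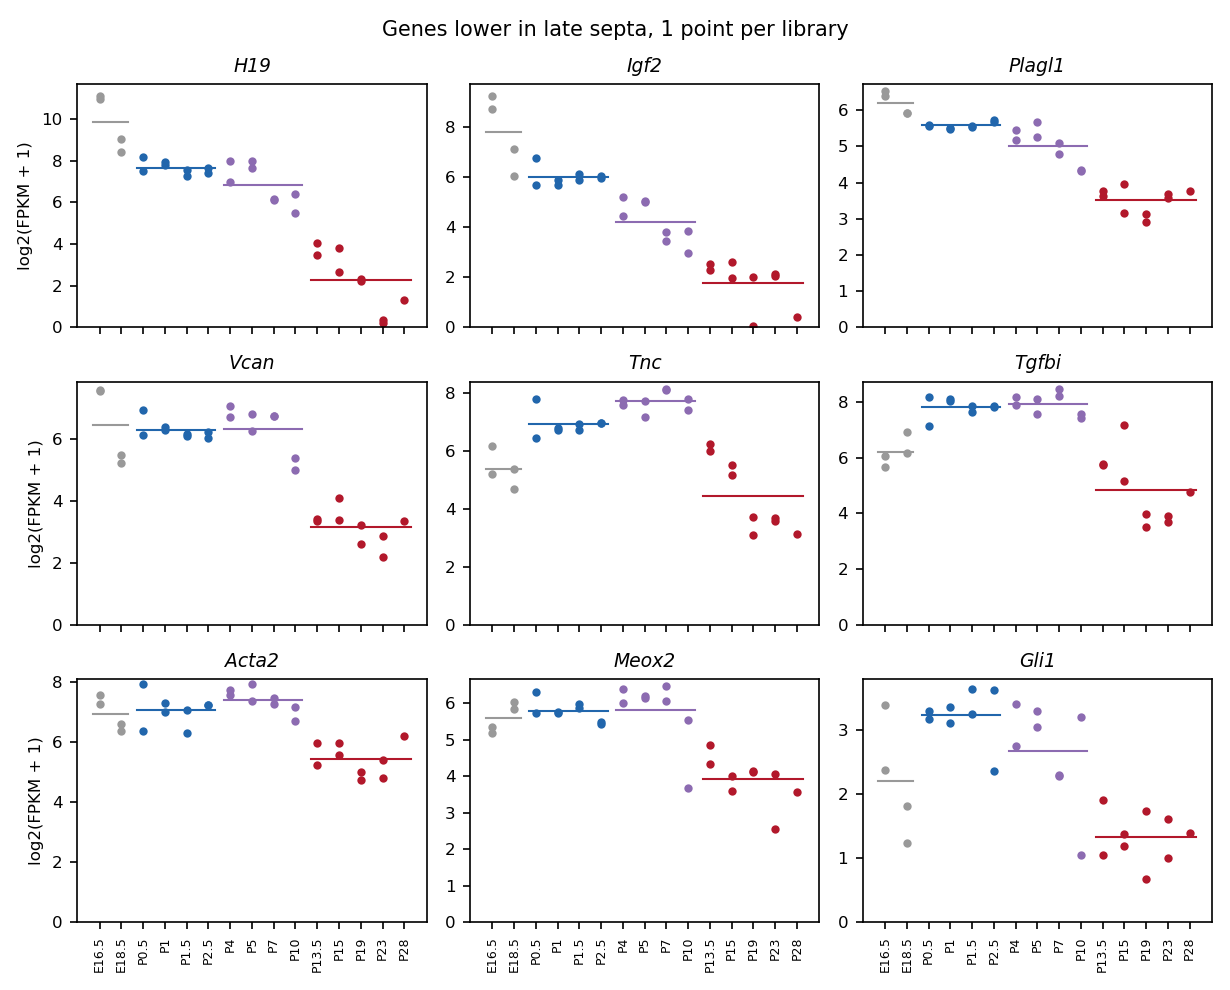
Levels of 9 genes that were lower in late septa, as log2(FPKM + 1) by age, with 1 point for each of the 29 libraries and a line at the mean of each age group (grey prenatal, blue newborn, purple P4 to P10, red late). Igf2 and H19 descend through all the groups, while Tnc and Acta2 stand highest at P4 to P10.

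Genes of the provisional matrix, the hydrated scaffold of growing tissue, held some of the largest falls. Of 14 tested, 7 were lower and 2 higher (6 and 1 without P19 pups d and f), with a median change of -0.83. Vcan, which encodes the proteoglycan versican, had 64.2, 72.3 and 121 FPKM in newborn septa and 3.57, 9.09 and 16.1 in late septa. The ranges were far apart, and the change was -3.12 (standard error 0.21, adjusted p = 3.14e-08). Hapln1, whose product links such proteoglycans to hyaluronan, changed by -2.59 (adjusted p = 2.84e-06) without overlap, and Has2, a hyaluronan synthase, by -1.35 (adjusted p = 0.00234) with 6 of 9 late libraries at 0. Tnc, which encodes tenascin C, had 85.2, 115 and 221 FPKM in newborn septa and 7.59, 12.0 and 73.5 in late septa, a change of -2.46 (adjusted p = 0.000502). Its late levels were 73.5 and 63.2 in the P13.5 pups and 7.59 to 12.0 in the 5 libraries from P19 on, and its mean at P4 to P10, 213, exceeded both groups. Tgfbi, a TGF-beta-induced adhesion protein gene, changed by -2.97 (adjusted p = 4.94e-05), with 1 late library, P15 pup c at 144 FPKM, inside the newborn range of 139.6 to 289. Thbs1, which encodes the adhesive protein thrombospondin 1, changed by -1.20 (adjusted p = 0.00103). Against this direction Spon1, which encodes another secreted adhesion protein, was higher (0.78, adjusted p = 0.00015) with no overlap. The other increase, in the collagen-binding protein gene Sparc (0.56, adjusted p = 0.0437), was lost without P19 pups d and f (adjusted p = 0.139) and in 13 of 17 repeats that left out 1 library.

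Collagen and elastic fiber genes fell less evenly. Of 30, 15 were lower and 1 was higher (12 and 1 without P19 pups d and f), with a median of -0.58. Fbn2, which encodes the fibrillin of fetal microfibrils, changed by -2.82 (adjusted p = 9.54e-06), from 11.1 to 21.7 FPKM in newborn septa to at most 4.88 in late septa. Fbln5, which organizes elastin on microfibrils, had 34.2, 41.5 and 49.4 FPKM against 9.66, 14.5 and 23.4. The groups did not overlap, and the change was -1.42 (standard error 0.18, adjusted p = 2.28e-05). Efemp2 (fibulin 4) changed by -1.39 (adjusted p = 0.000435), Loxl2, an enzyme that crosslinks collagen and elastin, by -1.15 (adjusted p = 0.00082) and Col6a1, a chain of microfibrillar collagen VI, by -0.84 (adjusted p = 0.000705). The microfibril gene Mfap5 was called higher (0.84, adjusted p = 0.0418) and lost its call in 14 of 17 repeats that left out 1 library.

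Elastin did not pass the test, and its mean covers a large spread inside the late group. Eln had 222, 303 and 411 FPKM in newborn septa and 91.9, 236 and 969 in late septa, with a change of -0.04 (standard error 0.40, adjusted p = 0.963). The P13.5 pups had 969 and 632 FPKM, the P15 pups 572 and 531, the P19 pups 236 and 223, the P23 pups 108 and 91.9, and the P28 pup 141. All late libraries up to P15 thus lay above every newborn library, and those from P23 on lay below every one of them. Col3a1, a major collagen of the interstitium, changed by -0.06 (standard error 0.19, adjusted p = 0.882) and was not called. Col1a1 changed by -0.80 (adjusted p = 0.0386), a call lost without P19 pups d and f (adjusted p = 0.0822) and in 9 of 17 repeats that left out 1 library.

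Most called basement membrane genes were lower. Of 21, 10 were lower and 1 was higher (9 and 1 without P19 pups d and f), with a median of -0.48. Lama5, a laminin chain, changed by -1.16 (adjusted p = 3.14e-05), and Nid2, which links laminin to collagen IV, by -1.36 (adjusted p = 0.000116), both without overlap. Col18a1 (-0.99, adjusted p = 0.00105) and Agrn (-0.64, adjusted p = 0.00165), genes of heparan sulfate proteoglycans, were lower too. In contrast Npnt, which encodes the integrin ligand nephronectin, had 102, 151 and 180.0 FPKM in newborn septa and 184, 323 and 469 in late septa. The highest newborn library lay just below the lowest late one, and the change was 1.08 (standard error 0.17, adjusted p = 0.000349). Itga8, which encodes the receptor subunit for nephronectin, rose by 1.41 (adjusted p = 1.66e-05), from 17.5 to 31.8 FPKM to 36.1 to 93.3. Itga1, a collagen receptor subunit, rose by 1.16 (adjusted p = 6.32e-06). These were the 2 of 16 integrin genes that were higher, against 3 that were lower, among them Itgb4, a subunit of hemidesmosomes (-1.03, adjusted p = 0.00714). With quantile normalization 1 was lower, and Itgb4 was not called.

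Many genes of contractile myofibroblasts were lower. Of 22 genes of this list, 10 were lower and 1 higher (9 and 1 without P19 pups d and f), with a median of -0.83. Acta2, smooth muscle actin, had 77.5, 139.8 and 243 FPKM in newborn septa and 25.6, 41.3 and 71.9 in late septa. The groups did not overlap, and the change was -1.62 (standard error 0.23, adjusted p = 0.000116). Actg2, another smooth muscle actin gene, changed by -2.60 (adjusted p = 2.89e-05), the myosin light chain gene Myl9 by -1.25 (adjusted p = 0.000166) and Myocd, a coactivator of smooth muscle genes, by -1.83 (adjusted p = 0.000428). Myh11, the smooth muscle myosin heavy chain gene, fell less (-0.75, adjusted p = 0.0056). The gene that went the other way was Pdgfra, a receptor that marks the precursors of these cells and also other septal fibroblasts. It had 17.2, 26.4 and 38.6 FPKM in newborn septa and 78.8, 94.8 and 119.8 in late septa. The lowest late library held more than the highest newborn one, and the change was 1.91 (standard error 0.15, adjusted p = 7.35e-08).

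**Figure D3:**
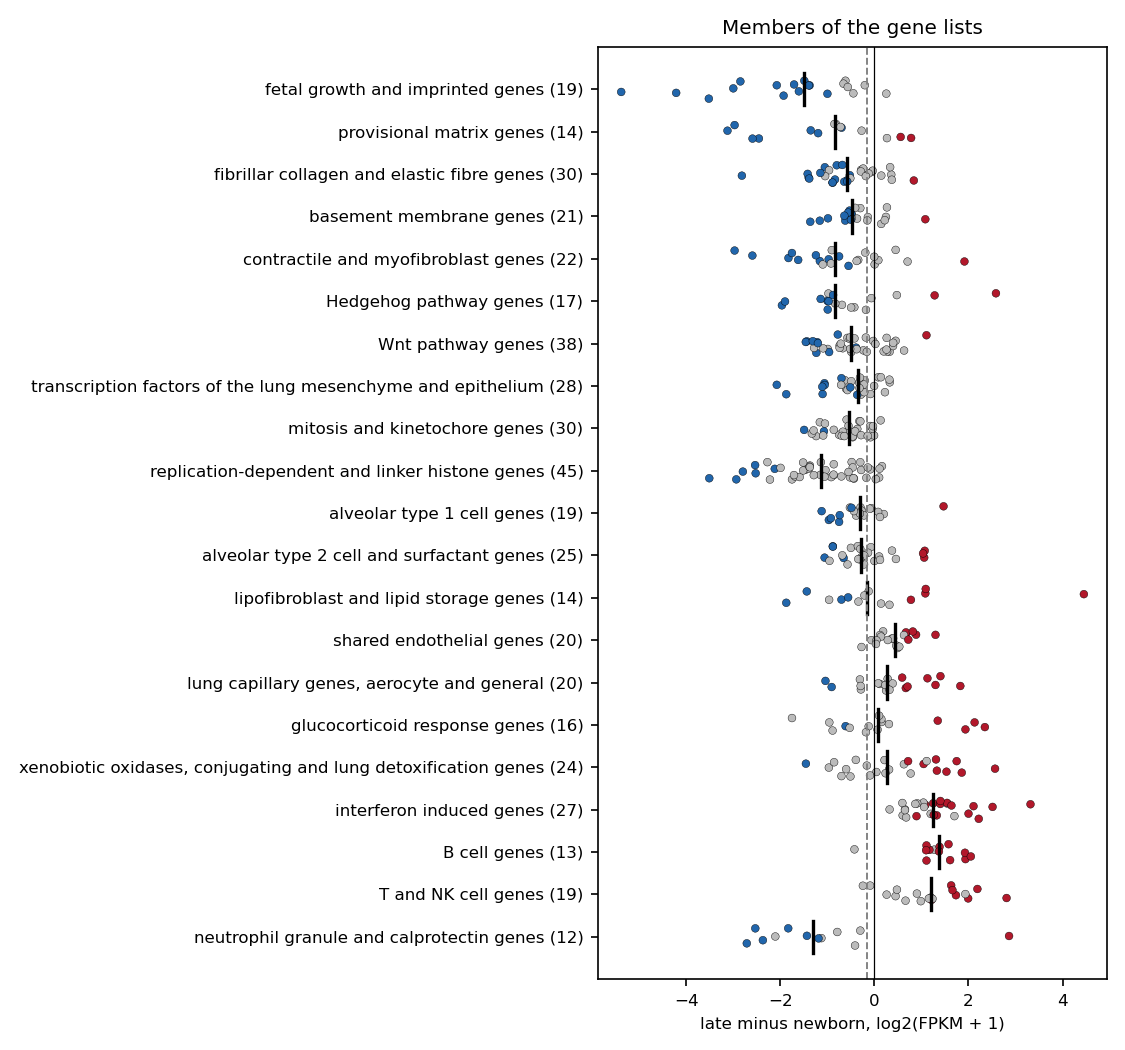
Change from newborn to late for the tested members of 21 gene lists, in log2(FPKM + 1). Each point is a gene (red higher, blue lower, grey not called), the number tested is in parentheses, black bars are list medians and the dashed line is the median of all genes, -0.16. The median is -1.49 for fetal growth genes and 1.37 for B cell genes.

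The Hedgehog pathway, in which SHH from the epithelium acts on the mesenchyme, was lower at several steps. Of 17 genes, 7 were lower and 2 higher (8 and 2 without P19 pups d and f), with a median of -0.83. Shh, the ligand gene, had 16.8, 20.2 and 26.6 FPKM in newborn septa and 0, 5.30 and 16.8 in late septa. P13.5 pup c, at 16.8, was the 1 late library to reach the newborn range, P19 pup d was listed at 0, and the change was -1.97 (adjusted p = 0.0028). Gli1, the transcription factor that pathway activity induces, fell without overlap from 4.13, 8.59 and 11.5 FPKM to 0.593, 1.57 and 2.73, a change of -1.90 (standard error 0.23, adjusted p = 2.17e-05). Ptch1 and Hhip, induced genes whose products restrain the pathway, changed by -0.999 (adjusted p = 0.00311) and -0.97 (adjusted p = 0.00803). The coreceptor genes Cdon and Boc changed by -0.99 (adjusted p = 0.0028) and -0.88 (adjusted p = 0.00456). The increases were Scube2, whose product helps release SHH from cells, and its relative Scube1. Scube2 had 3.40, 7.53 and 10.7 FPKM in newborn septa and 27.0, 47.1 and 71.6 in late septa, a change of 2.58 (standard error 0.22, adjusted p = 2.72e-07). Scube1 rose by 1.28 (adjusted p = 0.000807), also with no overlap.

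Other signaling families held fewer calls. Of 38 Wnt pathway genes, 9 were lower and 1 higher, with a median of -0.50, and the counts were 6 and 0 without P19 pups d and f and 5 lower without P2.5 pup i. The receptor genes Fzd1 (-0.78, adjusted p = 0.000131) and Fzd2 (-1.24, adjusted p = 0.00115) fell with no overlap, and the epithelial ligand gene Wnt7b changed by -1.46 (adjusted p = 0.00103). Wnt2, a mesenchymal ligand, changed by -1.44 (adjusted p = 0.0298) and lost its call without any 1 of 4 newborn libraries (P0.5 pup e, P1 pup d, P1.5 pup e and P2.5 pup i). The increase in Wnt4 (1.11, adjusted p = 0.027) was lost without P19 pups d and f (adjusted p = 0.063). Of 38 TGF-beta and BMP pathway genes, 4 were higher and 4 lower, and the median of -0.21 turned to 0.03 with quantile normalization. Tgfb2 (-0.79, adjusted p = 0.000791) and Fstl1, a BMP-binding protein gene (-0.90, adjusted p = 0.00207), were lower, while Bmp6 (1.12, adjusted p = 0.00456) and the activin antagonist gene Fst (1.40, adjusted p = 0.00208) were higher.

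Of 28 transcription factors of the lung mesenchyme and epithelium, 9 were lower and none was higher, as without P19 pups d and f, with a median of -0.34. Besides Plagl1, the falls included Meox2, a homeobox factor of mesenchyme, which went from 42.1, 52.8 and 77.8 FPKM to 4.82, 15.7 and 28.3, a change of -1.87 (standard error 0.23, adjusted p = 2.11e-05). The groups lay well apart. Gata6, a regulator of lung epithelium (-1.10, adjusted p = 0.00147), and Tcf21, a factor of lung fibroblasts (-0.70, adjusted p = 0.00566), were lower too. Nfib, whose loss leaves mouse lungs immature, changed by only -0.37 (adjusted p = 0.0151) with no overlap, and median ratio scaling removed its call. Sox9, a factor of distal tips, changed by -1.06 (adjusted p = 0.0114) from a newborn median of 2.40 FPKM, and it was not called after quantile normalization.

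Guidance cues and matrix proteases changed gene by gene. Of 28 semaphorin, plexin, ephrin and Slit-Robo genes, 5 were lower and 3 higher, with a median of -0.11. Sema3c, a secreted semaphorin, had 31.7, 48.6 and 60.9 FPKM in newborn septa and 142, 177 and 201 in late septa. Each late library held more than any newborn one, and the change was 1.83 (standard error 0.13, adjusted p = 3.66e-08). Sema3g, an endothelial semaphorin, rose by 1.15 (adjusted p = 0.000193) and the arterial ephrin gene Efnb2 by 0.70 (adjusted p = 0.00192). Epha3, an ephrin receptor (-1.82, adjusted p = 8.18e-05), Nrp2, a coreceptor for semaphorins and VEGFC (-0.75, adjusted p = 0.000128), Slit2 (-0.95, adjusted p = 0.0012) and Sema3a (-1.05, adjusted p = 0.00118) were lower. Of 24 matrix protease and inhibitor genes, 6 were lower and 3 higher (6 and 4 without P19 pups d and f), with a median of 0.09. Adam12, a membrane protease (-1.70, adjusted p = 0.0011), and Mmp11, stromelysin 3 (-1.39, adjusted p = 0.00104), fell without overlap. Mmp3, stromelysin 1, was listed at 0 in all 8 newborn libraries and had a median of 4.32 FPKM in late septa, where 1 library was at 0. Adamts15, a protease that cleaves versican, rose by 1.15 (adjusted p = 0.0011).

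The defining genes of the alveolar epithelium were high in both groups. Sftpc, the surfactant protein gene that defines type 2 cells, had a median of 13227 FPKM in newborn and 13027 in late septa, with a change of -0.08 (standard error 0.56, adjusted p = 0.947). Ager and Hopx, markers of type 1 cells, had newborn medians of 536 and 67.6 FPKM and late medians of 501 and 60.6 (changes of -0.30 and -0.27, adjusted p = 0.336 and 0.551). Among 25 type 2 cell and surfactant genes, 4 were lower and 3 higher (2 lower without P1.5 pup e and 7 without P15 pup c and P28 pup c), with a median of -0.28. Abca3, the transporter that loads lipid into lamellar bodies, went from 68.5, 107 and 141 FPKM to 50.3, 53.9 and 64.8 with no overlap, a change of -0.88 (standard error 0.12, adjusted p = 6.93e-05). Lpcat1, an enzyme of surfactant phosphatidylcholine synthesis, changed by -0.88 (adjusted p = 0.000733) and the phosphate transporter gene Slc34a2 by -0.65 (adjusted p = 0.0234), a call lost without P0.5 pup e or P1.5 pup e. The increases were Cd36, a fatty acid transporter that capillary and myeloid cells also express (1.03, adjusted p = 0.0017), Scd1, a fatty acid desaturase (1.07, adjusted p = 0.0127), and Lyz2, lysozyme, which macrophages also express (1.06, adjusted p = 0.0138), and of these only Cd36 was called in the fit of 4 stage groups. Among 19 type 1 cell genes, 6 were lower and 1 higher (5 and 1 without P19 pups d and f), with a median of -0.31. Akap5, a scaffold for protein kinase A, had 182, 215 and 299 FPKM against 75.0, 116 and 142, a change of -0.97 (standard error 0.13, adjusted p = 6.78e-05) with no overlap. Scnn1g, a subunit of the sodium channel that clears fluid from the newborn lung, changed by -1.12 (adjusted p = 0.00035), Gprc5a by -0.93 (adjusted p = 0.00067) and Rtkn2 by -0.75 (adjusted p = 0.0011). Igfbp2, described above, was the member that rose.

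Lipofibroblasts are interstitial cells that store fat and supply type 2 cells. Of 14 genes of this list, 4 were higher and 4 lower (4 and 3 without P19 pups d and f), with a median of -0.17. Inmt, indolethylamine N-methyltransferase, had 0.766, 6.71 and 55.3 FPKM in newborn septa and 59.9, 166 and 314 in late septa. The highest newborn level belonged to P0.5 pup e, the next was 14.2 in P1 pup e, and the mean at P4 to P10 was 3.22. The change, 4.45 (standard error 0.53, adjusted p = 1.54e-05), was the largest increase among the genes named here. Slc7a10, an amino acid transporter, rose by 1.09 (adjusted p = 0.0016) without overlap, and Enpp2, which makes lysophosphatidic acid, by 0.78 (adjusted p = 0.0027). Npnt, Meox2, Tcf21 and Wnt2, described above, belong to this list as well.

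Some endothelial genes were higher in late septa. Of 20 shared endothelial genes, 6 were higher and none was lower, as without P19 pups d and f, with a median of 0.43. Flt1, a VEGF receptor, had 24.1, 30.3 and 32.9 FPKM in newborn septa and 38.3, 55.1 and 81.4 in late septa. The groups did not overlap, and the change was 0.89 (standard error 0.13, adjusted p = 0.000107). Ptprb, a phosphatase that acts on the TIE2 receptor, rose by 1.30 (adjusted p = 0.00031), Tek, which encodes TIE2, by 0.67 (adjusted p = 0.00835) and Angpt1, the TIE2 ligand, by 0.94 (adjusted p = 0.00038). Epas1, an oxygen-sensing transcription factor, rose by 0.82 (adjusted p = 0.00731) and Calcrl, a receptor for adrenomedullin, by 0.72 (adjusted p = 0.0205). Of 20 lung capillary genes, 7 were higher and 2 lower (5 and 2 without P19 pups d and f), with a median of 0.27. Plvap, a protein of endothelial diaphragms, had 34.1, 52.5 and 72.7 FPKM against 95.4, 114 and 160.1, a change of 1.13 (standard error 0.14, adjusted p = 3.19e-05) with no overlap. Gpihbp1, which carries lipoprotein lipase across capillaries, rose by 1.40 (adjusted p = 0.0197). The falls were in Ednrb, an endothelin receptor of aerocytes, the capillary cells of gas exchange (-0.91, adjusted p = 0.0075), and Aplnr, the apelin receptor of general capillary cells (-1.04, adjusted p = 0.00518). Vegfc, a growth factor for lymphatic vessels, changed by -1.05 (adjusted p = 0.0229), a call lost without both P13.5 pups. Among genes of lymphatic vessels themselves, the falls were Prox1, the factor that defines them, at -1.60 (adjusted p = 0.000849) and Mmrn1 at -1.26 (adjusted p = 0.00387). For Prox1 and Mmrn1 the groups did not overlap, and they were 2 of 7 lymphatic genes tested.

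Several genes of the glucocorticoid response were higher. Hsd11b1, whose enzyme regenerates active glucocorticoid in tissue, had 40.7, 72.2 and 107 FPKM in newborn septa and 214, 248 and 362 in late septa. Every late library was well above the newborn range, and the change was 1.94 (standard error 0.18, adjusted p = 7.05e-07). Zbtb16, a transcription factor induced by glucocorticoids, had 7.38, 12.9 and 46.1 FPKM against 47.7, 68.2 and 202, a change of 2.35 (adjusted p = 0.000344). Its highest values were in the P23 pups, and its mean at P4 to P10, 7.91, was below both groups. Tsc22d3, which encodes the glucocorticoid-induced leucine zipper, rose by 2.13 (adjusted p = 0.000268) and Klf9, a zinc finger factor, by 1.35 (adjusted p = 0.00124). These were the 4 of 16 genes that were higher, with the same number without P19 pups d and f. The list's median was 0.08, and Sgk1, a kinase that glucocorticoids also induce, was lower (-0.61, adjusted p = 0.0167).

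Enzymes that metabolize foreign compounds were mostly higher where they were called. Of 24 such genes, 8 were higher and 1 lower (7 and 1 without P19 pups d and f), with a median of 0.27. Fmo2, a flavin monooxygenase of lung, had 29.4, 86.5 and 133 FPKM in newborn septa and 96.8, 262 and 450.0 in late septa. The P28 pup gave the lowest late value, inside the newborn range, and the change was 1.75 (standard error 0.32, adjusted p = 0.00122). Fmo1 rose by 1.31 (adjusted p = 3.41e-05), Ephx1, microsomal epoxide hydrolase, by 1.86 (adjusted p = 0.000216) and Aldh1a1, a retinaldehyde dehydrogenase, by 1.53 (adjusted p = 0.0034). Cyp2b10, a cytochrome P450, rose by 2.56 (adjusted p = 0.00621), from a median of 2.85 FPKM to 27.1. Its late values were 7.25 and 2.22 in the P13.5 pups and 68.2 and 105 in the P23 pups. Ugt1a6a, a glucuronosyltransferase gene that shares exons with its relatives, was the member that fell (-1.46, adjusted p = 0.00471), and quantile normalization removed its call.

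Of 21 antioxidant enzyme genes, 2 were higher and 1 was lower. That is 14.3% called, near the 12.3% of all genes tested. Sod3, extracellular superoxide dismutase, had 3.08, 6.25 and 18.0 FPKM against 29.5, 66.4 and 124, a change of 3.11 (standard error 0.29, adjusted p = 7.05e-07). Gpx3, the secreted glutathione peroxidase, had 13.3, 31.4 and 91.1 FPKM against 111, 206 and 338, a change of 2.54 (standard error 0.32, adjusted p = 2.67e-05). In both genes, whose products act outside cells, every late library lay above every newborn one. Prdx2, a peroxidase of the cytosol, fell (-0.72, adjusted p = 0.00893). Of 16 retinoid genes, 2 were higher and 2 lower, with a median of -0.21 that turned to 0.01 with quantile normalization. The count of falls was 1 there, with median ratio scaling, with sex as a covariate, and without any 1 of P0.5 pup f, P1 pup e, P1.5 pup e, P2.5 pup h, P2.5 pup i, P13.5 pup c, P13.5 pup d or P19 pup f. Lrat, which stores retinol as esters, rose from at most 0.883 FPKM in newborn septa to a late median of 4.54 (2.31, adjusted p = 0.00118), while Adh1, a retinol dehydrogenase, was lower (-1.10, adjusted p = 0.00647).

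**Figure D4:**
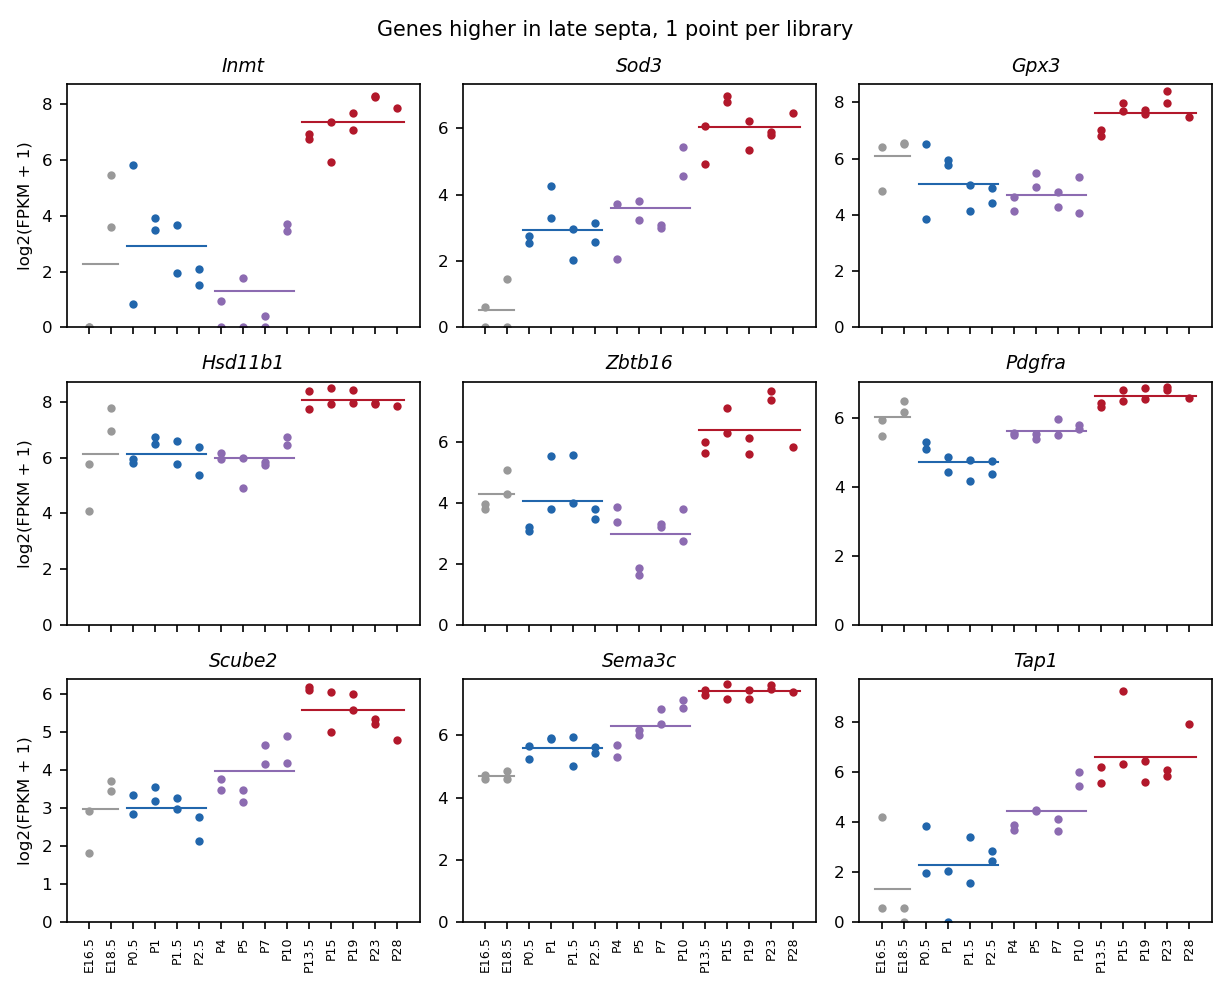
Levels of 9 genes that were higher in late septa, as log2(FPKM + 1) by age, with 1 point for each of the 29 libraries and a line at the mean of each age group (grey prenatal, blue newborn, purple P4 to P10, red late). Inmt, Gpx3 and Zbtb16 have a lower mean at P4 to P10 than in newborn septa, while Pdgfra, Scube2 and Sema3c lie between the groups there.

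Interferon-induced genes had changes above 0 throughout the list. Interferons are antiviral signals that switch on genes through promoter elements bound by STAT and IRF factors. Of 27 genes, 14 were higher and none was lower (15 and 0 without P19 pups d and f), all 27 changes were above 0, and the median was 1.25. The promoters of 3 of the genes that rose are printed because they hold the letters known from interferon-regulated promoters. Each window is the 150 bases ahead of the first gene start that RefSeq or GENCODE annotates in GRCm38.p6, with sequence from RefSeq, written 5′ to 3′ in the direction of the gene. Capitals mark each match to GAAANNGAAA on either strand.

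Ifit1, chr19:34640721-34640870, plus strand: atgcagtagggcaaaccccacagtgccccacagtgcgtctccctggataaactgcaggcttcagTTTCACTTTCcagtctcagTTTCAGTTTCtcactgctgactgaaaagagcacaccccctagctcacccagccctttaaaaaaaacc
Gbp3, chr3:142559866-142560015, plus strand: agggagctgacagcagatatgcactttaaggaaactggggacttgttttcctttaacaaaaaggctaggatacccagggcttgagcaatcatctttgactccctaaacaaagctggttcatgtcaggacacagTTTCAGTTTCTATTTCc
Igtp, chr11:58199406-58199555, plus strand: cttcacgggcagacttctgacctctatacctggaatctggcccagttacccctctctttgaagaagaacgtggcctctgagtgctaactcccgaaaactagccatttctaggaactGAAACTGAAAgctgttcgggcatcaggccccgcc

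In the 250 bases before the start that the promoter table uses, this motif occurred in 11 of the 19 interferon list promoters in the table (57.9%) and in 3.46% of the promoters of all 27025 genes in it. The motif was chosen after the values were seen, and a match describes letters and not a bound site. The first matches begin 104 bases before that start for Ifit1, 45 for Gbp3 and 34 for Igtp. Ifit3, an interferon-induced protein with tetratricopeptide repeats, had 0.862, 1.80 and 2.81 FPKM in newborn septa and 4.59, 25.5 and 122 in late septa, a change of 3.32 (standard error 0.43, adjusted p = 3.86e-05). Its relative Ifit1 had 1.34, 2.77 and 6.69 FPKM against 4.87, 13.5 and 53.4, a change of 2.11 (adjusted p = 0.00139). For Ifit3 the groups were apart, and for Ifit1 they overlapped. Gbp3, a guanylate-binding protein of antimicrobial defense, had 3.23, 4.36 and 8.38 FPKM against 11.4, 24.9 and 179, a change of 2.51 (adjusted p = 0.000216) without overlap. Igtp and Irgm1, GTPases of the same defense, rose by 2.00 (adjusted p = 0.0156) and 1.26 (adjusted p = 0.0258). Ifi27, an interferon-induced membrane protein gene, rose by 1.40 (adjusted p = 0.000657). The interferon-induced genes Gbp2 (2.22, adjusted p = 0.00194), Tgtp2 (3.65, adjusted p = 0.000906), Ifi203 (3.12, adjusted p = 2.72e-07) and Mndal (3.25, adjusted p = 6.52e-07) rose without overlap, and since Tgtp2, Ifi203 and Mndal have close relatives their shares of reads are uncertain.

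P15 pup c had the highest summed level of these genes. The sum of the 27 genes was 219 to 318 FPKM in newborn libraries and 396 to 2682 in late ones, with a late median of 526. Without P15 pup c and P28 pup c, a repeat chosen after seeing the data, 13 of the genes were higher and the median was 0.82. P15 pup c and then P28 pup c were also highest for Tap1 and Cd74, genes of antigen presentation. Tap1, which pumps peptides to MHC class I molecules, had 0, 3.77 and 13.4 FPKM in newborn septa and 45.9, 72.4 and 602 in late septa. P28 pup c, at 239.9, was next to P15 pup c, and the lowest late library was still above every newborn one, a change of 4.31 (standard error 0.52, adjusted p = 1.67e-05). The matrix holds differing lines for Tap1, and the change was 3.50 when they were summed. Cd74, the invariant chain of MHC class II molecules, had 6.87, 11.5 and 30.1 FPKM against 57.8, 92.7 and 574, a change of 3.02 (standard error 0.40, adjusted p = 4.26e-05) without overlap. Of 9 class I and antigen processing genes tested, 4 were higher and none lower, but 1 was higher without P15 pup c and P28 pup c. Leaving out single libraries gave counts of 1 to 6, with 1 without P28 pup c, P0.5 pup e, P1.5 pup d or P1.5 pup e and 2 without P1 pup d, P2.5 pup h, P2.5 pup i, P15 pup e, P23 pup e or P23 pup f. B2m, the light chain of class I molecules (1.64, adjusted p = 0.0368), Nlrc5, which switches on class I genes (1.54, adjusted p = 0.0443), and Ciita, which switches on class II genes (1.16, adjusted p = 0.0352), lost their calls in 8, 14 and 8 of the 17 repeats without 1 library.

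Lymphocyte genes were higher in late septa. Of 13 B cell genes, 11 were higher and none was lower, as without P19 pups d and f, with a median of 1.37. The count was 7 without P15 pup c and P28 pup c, and also 7 with sex from the labels as a covariate. Cd79a, a signaling chain of the B cell receptor, had 0, 0.996 and 3.37 FPKM in newborn septa and 2.94, 4.74 and 20.0 in late septa. P23 pup f was the 1 late library inside the newborn range, P19 pup d was highest, and the change was 1.94 (adjusted p = 0.00203). Pax5, the factor of B cell identity, rose by 1.93 (adjusted p = 0.00209), Cd22 by 1.58 (adjusted p = 0.00159), Fcrla by 2.05 (adjusted p = 0.00144) and Ms4a1, which encodes CD20, by 1.39 (adjusted p = 0.00778). Cd72, a B cell coreceptor outside the list, rose by 2.80 (adjusted p = 8.63e-05) without overlap. The summed level of the 13 genes was 21.9 to 39.8 FPKM in newborn and 55.9 to 131 in late libraries. Of 19 T and NK cell genes, 7 were higher and none lower (9 and 0 without P19 pups d and f), with a median of 1.20, and 6 were higher without P15 pup c and P28 pup c. Cd3e and Cd3g, chains of the T cell receptor complex, rose by 2.19 (adjusted p = 0.00413) and 2.81 (adjusted p = 0.00714). P15 pup c was highest for Cd3g at 78.6 FPKM and P19 pup d lowest of the late group at 0.175. The coreceptor gene Cd4 rose too (1.73, adjusted p = 0.00652). Outside the list, Cd2, an adhesion receptor of T and NK cells, rose by 2.92 (adjusted p = 2.17e-05) without overlap. Gimap3, a GTPase of lymphocytes with close relatives and also outside the list, rose by 2.80 (adjusted p = 7.3e-06) without overlap. The summed level of 22 T and NK cell genes was 15.8 to 53.2 FPKM in newborn and 51.2 to 386 in late libraries, with the maximum in P15 pup c.

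Innate immune genes were divided. Of 14 complement genes, 5 were higher and none lower (6 and 0 without P19 pups d and f), with a median of 0.79, and 3 were higher without P15 pup c and P28 pup c. The count was also 3 without any 1 of 9 libraries, which were P0.5 pup f, both P1.5 pups, both P2.5 pups, both P15 pups, P23 pup f and P28 pup c. C1s1, a protease of the C1 complex, rose by 1.30 (adjusted p = 0.00153) without overlap. Of 12 neutrophil granule and calprotectin genes, 6 were lower and 1 higher, as without P19 pups d and f, with a median of -1.31. Ltf, lactoferrin, had 2.57, 8.21 and 12.7 FPKM in newborn septa and 0, 0.635 and 2.70 in late septa, a change of -2.37 (adjusted p = 5.61e-05). Camp, cathelicidin, was listed at 0 in 8 of 9 late libraries (-2.53, adjusted p = 0.000274), and Ngp, a granule protein gene (-2.71, adjusted p = 0.00163), and S100a9, a chain of calprotectin (-1.83, adjusted p = 0.0143), were lower. Stfa2, a stefin of the cystatin family, had the largest fall of the genes named here. It had 23.1, 64.1 and 112 FPKM in newborn septa and 0 in 8 of 9 late libraries, with 8.85 in P15 pup c, a change of -5.41 (standard error 0.43, adjusted p = 9.33e-08), and close relatives can share its reads. Chil3, a chitinase-like protein that alveolar macrophages also make, was the member that rose, from a median of 2.26 FPKM to 32.1 (2.86, adjusted p = 0.00863). It was also the 1 of 20 alveolar macrophage and myeloid genes that was called.

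Most changes in genes of cell division were below 0, but few mitosis and replication genes were called. Of 30 mitosis genes, 29 changes were below 0 and the median was -0.54. The median of all genes tested was also below 0, at -0.16. With quantile normalization the mitosis median was -0.28, against -0.029 for all genes. Of the 30 mitosis genes, 2 were called lower (6.7%, against 7.5% of all genes tested), and 1 without P19 pups d and f. The count was 6 without P15 pup c and 7 without P15 pup c and P28 pup c, and 1 without P0.5 pup f, P1 pup d, P2.5 pup i or P28 pup c. Mki67, a marker of cycling cells, had 18.1, 55.3 and 239.8 FPKM in newborn septa and 9.13, 36.7 and 142 in late septa (-0.75, adjusted p = 0.347), with the maxima in P0.5 pup f and P15 pup c. Cdk1, the mitotic kinase, was called (-1.49, adjusted p = 0.0128), and the call of Ttk, a spindle checkpoint kinase (-1.07, adjusted p = 0.0312), was lost without P19 pups d and f (adjusted p = 0.0718). Of 30 DNA replication genes, 28 changes were below 0 with a median of -0.42 (-0.21 with quantile normalization), and none was called in limma. The count of falls was 2 without P1 pup e, 1 without P15 pup c or P15 pup e and 3 without P15 pup c and P28 pup c. Of 45 replication-dependent and linker histone genes, 6 were lower (13.3%, against 7.5% of all genes tested) and none higher, with a median of -1.14. The counts were 5 and 0 without P19 pups d and f, and 10 and 0 without P15 pup c. H3c6 had 11.6, 18.5 and 32.5 FPKM in newborn septa and was listed at 0 in 6 of 9 late libraries, a change of -3.51 (adjusted p = 8.33e-05), and H3c1 changed by -2.54 (adjusted p = 0.00268). Reads can be shared among histone genes of a class, so single members are uncertain. In the promoters of the mitosis list, CCAAT occurred in 21 of 26 (80.8%, against 37.5% of all promoters) and TTTGAA, of the cell cycle element, in 9 (34.6%, against 18.3%), on either strand of the 250 bases.

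Ribosomal, respiratory chain, low oxygen and clock genes were looked at as well. Of 78 ribosomal protein genes, 7 were lower and 1 higher (10.3% called, against 12.3% of all genes tested). The count of falls was 21 without P1.5 pup d. Of 31 nuclear respiratory chain genes none was called, with a median of -0.10. Of 15 genes induced by low oxygen, 1 was lower, the prolyl hydroxylase gene Egln3 (-2.16, adjusted p = 0.000243, 0 in 6 of 9 late libraries). Of 18 clock genes, 3 were higher and 1 lower (22.2% called, against 12.3% of all genes tested), with Hlf at 1.45 (adjusted p = 0.00253) and Nr1d2 at 1.00 (adjusted p = 0.0182), and the hour of tissue collection was not used here.

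Markers of cells outside the septal wall were measured beside these results. Of 8 club cell genes, 3 were lower (2 without P19 pups d and f, and 1 without P0.5 pup e, P1 pup e, P2.5 pup h or P2.5 pup i). The summed level of 10 club cell genes was 643 to 5036 FPKM in newborn and 924 to 5001 in late libraries. The median of this sum was higher in late libraries (4163) than in newborn ones (2705). Bpifa1, Bpifb1 and Reg3g were at 0 in all late libraries. Scgb3a2, a secretoglobin of airway cells, had 68.0, 315 and 921 FPKM against 0, 70.4 and 167 (-2.64, adjusted p = 0.0256), a call lost without P0.5 pup e or P2.5 pup i, and its relative Scgb3a1 (-2.90, adjusted p = 0.0407) lost its call without P19 pups d and f and in 12 of 17 repeats that left out 1 library. Of 12 heart muscle genes, 4 were lower, but the count was 7 without P19 pups d and f, 2 without P15 pup c and P28 pup c, 2 without both P13.5 pups, 2 with quantile normalization and 0 in the fit of all 29 libraries in 4 stage groups. The calls included Tnnt2, cardiac troponin T (-2.11, adjusted p = 0.0109), and Myl4, an atrial myosin chain (-2.35, adjusted p = 0.0179), which reached 98.3 FPKM in P0.5 pup e, and Myl4 was also not called without both P13.5 pups or with zeros set to missing. The summed level of the heart genes was 54.6 to 689.5 FPKM in newborn and 19.1 to 153 in late libraries, and Myl2 was at 0 in all 17. Of 6 mesothelial genes, 2 were lower and none was higher, and 2 of the 6 changes were above 0. Besides the 2 falls, 1 gene was called higher without P19 pups d and f and without both P13.5 pups. The same count of increases came with median ratio scaling, with quantile normalization and in the fit of 4 stage groups. Msln, mesothelin, had 30.3, 73.8 and 103 FPKM in newborn septa and 0, 7.62 and 10.7 in late septa, a change of -3.63 (adjusted p = 2.44e-05) with no overlap, and Krt19, a keratin of mesothelium and epithelium, changed by -1.81 (adjusted p = 0.00118). The summed level of 7 mesothelial genes was 108 to 242 FPKM in newborn and 25.5 to 90.6 in late libraries. The part of airway, heart and pleura in the other changes was not tested.

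Further genes with large differences stood outside these lists. They were chosen among called genes whose groups did not overlap, so their lack of overlap is part of the choice. Prelp, a small proteoglycan, had 2.29, 6.61 and 8.05 FPKM in newborn septa and 34.5, 61.4 and 96.5 in late septa, a change of 3.18 (standard error 0.23, adjusted p = 3.66e-08). Cxcl14, a chemokine, had 0.253, 2.32 and 3.61 FPKM against 6.83, 33.1 and 54.5 (3.33, adjusted p = 5.05e-06). Adra1a, an adrenergic receptor gene, had at most 0.379 FPKM in newborn septa and a median of 5.76 in late septa (2.71, adjusted p = 1.66e-06). Each of these, and Mroh2b, at 7.11, 14.0 and 30.2 FPKM against 72.7, 100.4 and 160.5 (2.83, adjusted p = 1.76e-07), was higher in every late library than in any newborn one. Among the falls, Slc27a6, a fatty acid transporter, had 36.5, 56.6 and 82.3 FPKM against 1.24, 6.32 and 13.6 (-3.15, adjusted p = 2.87e-06). Prss35, a protease-like gene, went from a median of 40.9 FPKM to 2.95 with 0 in both P19 pups (-3.54, adjusted p = 8.33e-05). Agt, angiotensinogen, changed by -2.73 (adjusted p = 0.000489), and the epithelial genes Cldn4, a claudin of tight junctions, and S100a14, a calcium-binding protein, by -2.85 (adjusted p = 3.23e-05) and -3.03 (adjusted p = 0.000362). None of these falls showed overlap between the groups, as the choice required.

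The libraries from P4 to P10 show how much of each difference was present in between. For each called gene, the share reached is the distance of the P4 to P10 mean from the newborn mean, as a percent of the distance from newborn to late on log2(FPKM + 1). The median share was 25.8% for the genes that were higher and 32.0% for those that were lower, and it was under 50% for 76.7% and 64.5% of them. Of the 662 higher genes, 140 had a P4 to P10 mean below the newborn mean and 18 were past the late mean. The share was -36.4% for Inmt, whose mean was lower at P4 to P10 than in newborn septa, and 37.6% for Scube2. Of the 1041 lower genes, 259 had a P4 to P10 mean above the newborn mean and 80 were past the late mean. Prss35 (a mean of 88.8 FPKM at P4 to P10), Slc27a6 (74.0), Agt (31.2), Loxl2 (108), Tnc (213) and Acta2 (172) stood above both groups there, while the share was 74.3% for Cldn4 and 54.2% for Msln. The newborn and late libraries both chose the genes and set the scale, so the shares are a description.

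**Figure D5:**
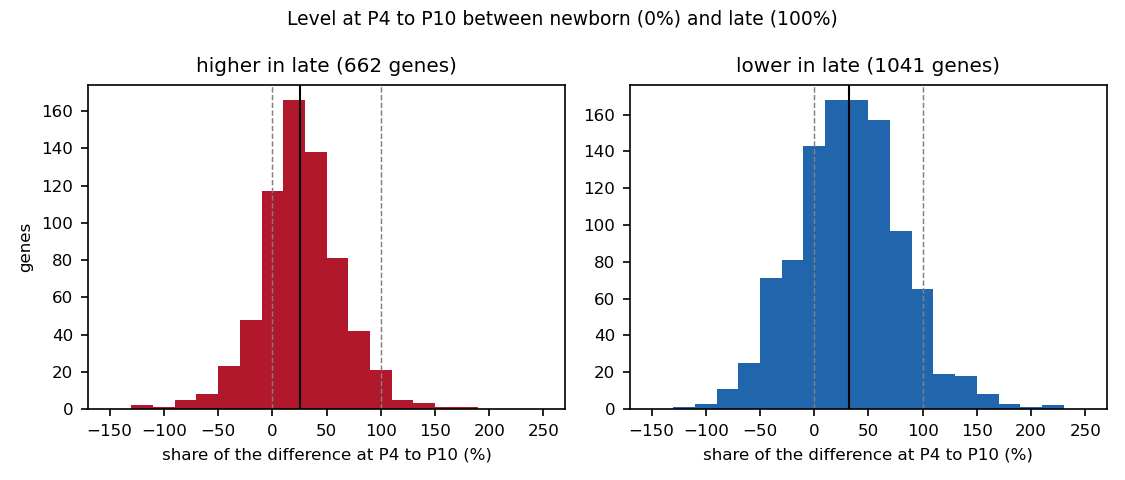
Share of the difference between newborn and late septa that the mean of the 8 libraries from P4 to P10 had reached, in percent, for the 662 genes higher (left) and 1041 genes lower (right) in late septa. Bars count genes, the black lines are the medians of 25.8% and 32.0%, and dashed lines mark the newborn (0%) and late (100%) levels.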

How the data were processed

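RNA of laser-captured septa was sequenced by the study, and the authors deposited 1 matrix of FPKM values (STAR 2.5.1 and Cufflinks 2.2.1, genome build mm10, per the submitters' processing notes). FPKM carry no counts, so the depth of each library is unknown here and no counting interval is given. The matrix has 24486 lines for 22779 gene IDs, of which 1226 stand on more than 1 line. There were 651 lines that repeat another in full and 944 IDs whose lines differ, and the line with the highest mean was kept. Symbols were matched for 22718 IDs, and a gene absent from the matrix was not analysed here.

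Libraries were grouped by the age in their labels. Late and newborn septa were compared with limma 3.58.1 (linear model, empirical Bayes with a trend, two-sided, Benjamini-Hochberg adjustment) in R 4.3.3 on log2(FPKM + 1), for genes that reached an FPKM of 1 in 4 or more of the 17 libraries. The fit was first checked on simulated data with known changes. It called 57 of 100 changes of 1 on the log2 scale and 94 of 100 changes of 2. A gene that was not called can therefore still have changed. The members of the gene lists, the motifs and the comparison itself were chosen with earlier results of these data known.

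Genes were named by 4 rules: the 15 largest changes in each direction among called genes without overlap, with 5 FPKM or more on average in the higher group and an established symbol, up to 4 list members with the smallest p in each direction, members called against the direction of their list, and defining cell markers. Some results are not reported here. Alternatives were another pseudocount, no filter and a stricter filter on low values, other scalings, models with 29 libraries, age, sex or library weights, a least change, zeros as missing, summed lines, and leaving out libraries. Promoter sequences are those of RefSeq on GRCm38.p6. Positions of genes are on GRCm38.p6, of which mm10 is the browser name.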

Additional observations from a re-analysis of the deposited data

Results flagged for a closer look

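In 374 groups of levels, that is the newborn and late values of each of the 187 genes named, 28 single values stood apart from the rest of their group by Dixon's criterion, which chance meets in about 1 group in 20. The values that follow are FPKM, each with the nearest value of the same group. P15 pup c was apart in 6 genes, Stfa2 (8.85, next lower 0), Ciita (21.2, next lower 3.74), Tek (60.9, next higher 101), Camp (3.8, next lower 0), H3c1 (6.24, next lower 1.08) and Egln3 (3.99, next lower 0.49). P0.5 pup f stood apart in 6 genes, Vcan (121, next lower 82.3), Tnc (221, next lower 124), Myl9 (212, next lower 132), Fgfr2 (52.5, next higher 76.5), Ngp (3.91, next higher 21) and Adam12 (36.3, next lower 19.6). P0.5 pup e was apart in 4 genes, Igf2 (108, next lower 68.7), Mfap5 (24.5, next lower 9.41), Myl4 (98.3, next lower 28.6) and Nr1d2 (28.9, next lower 15). P19 pup d stood apart in 3 genes, Igf2bp2 (0.0375, next higher 2.75), Chil3 (0, next higher 9.33) and Scgb3a2 (0, next higher 29.3). P1 pup d was apart in 2 genes, Dlk1 (2.94, next higher 6.01) and H3c1 (0, next higher 4.71). P23 pup e stood apart in 2 genes, Myl9 (23.6, next higher 46) and Adh1 (12.1, next higher 30.2). P19 pup f was apart in 2 genes, Wnt2 (0, next higher 5.09) and Ifi27 (12.2, next higher 28.1). P2.5 pup h stood apart in 1 gene, Gli1 (4.13, next higher 7.6). P23 pup f was apart in 1 gene, Ugt1a6a (1.92, next lower 0.704). P1.5 pup d stood apart in 1 gene, Fstl1 (117, next higher 175). The 6 genes of P15 pup c are from several of the lists above, and its interferon and T cell sums were also the highest of the 17 libraries.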

How the results depend on the processing

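No called gene of the comparison changed direction under any of 16 alternatives or with any of the 17 libraries left out. Main counts were 662 higher and 1041 lower. Across the alternatives other than a least change, the counts were 562 to 897 higher and 749 to 1531 lower. Sex from the labels as a covariate gave the fewest increases. Quantile normalization gave the most increases and the fewest falls, while array quality weights gave the most falls. When changes beyond 1 on the log2 scale were tested in place of any change, 26 genes were higher and 33 lower. Small changes cannot pass that test, and neither can larger ones whose standard error is wide. Of the main calls, 326 higher and 512 lower genes had an estimated change of at least 1, and most of them did not pass. Leaving out 1 library gave 545 to 692 higher and 762 to 1048 lower. Without P15 pup c and P28 pup c, a repeat chosen after seeing the data like that without both P13.5 pups, 607 were higher and 1003 lower, and 520 and 826 of the main calls were made again. Of 181 named genes with a call, 155 kept it under every alternative other than the least change, and 12 lost it without at least 1 single library. Most of these genes were named for large changes without overlap or for small p, which favors keeping a call. Over all calls, 537 of 662 increases and 772 of 1041 falls were made again with sex as a covariate. With quantile normalization 645 and 715 were made again. Some changes moved by over 1.5 times in fold. Without P15 pup c and P28 pup c, the change was 2.74 for Tgtp2, 1.28 for Igtp, 1.63 for Gbp2 and 2.17 for Cd3g. With zeros set to missing it was -2.48 for Stfa2, -1.80 for H3c6, 2.16 for Gimap3 and -1.34 for Myl4. It was 3.57 for Chil3 and -1.89 for Scgb3a2 without P19 pups d and f, -2.23 for Scgb3a1 without P0.5 pup e, and 3.16 for Cyp2b10 without both P13.5 pups. With sex as a covariate, the counts of genes that were higher were 1 for class I, 3 for complement, 7 for B cell and 5 for clock genes. The main counts of these were 4, 5, 11 and 3. The count of club cell genes that were lower was 1 with this covariate. No paired analysis was possible because pup letters name animals within an age and are shared by no design between ages. FPKM without counts leave the depth of each library unknown, and genes listed at 0 in P19 pups d and f may be failed estimates. Newborn and late animals also differ in the sex ratio of their labels. The covariate above used those labels, which levels of Xist and Y genes went against in 6 of the 17 libraries. It therefore cannot tell the part of sex, which was not tested otherwise.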
